A study of Mus musculus with 16 samples.

Results

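Malat1 and Neat1 are long noncoding RNAs that stay in the nucleus, and here they were read as measures of how much nuclear RNA each cell fraction held. They are 2 of the 13015 genes in the table. The pair was chosen by this known location and with the difference between the fractions in these same libraries in view, so that difference is given below as a description with no test. The samples were NIH/3T3 cells, an established line of mouse fibroblasts, transfected with a control siRNA (siControl) or an siRNA against Apc (siAPC), the mouse gene of the tumor suppressor adenomatous polyposis coli. In all groups, the cells settled for 2 h on a filter with pores of 3.0 µm, then received lysophosphatidic acid (LPA), a lipid that attracts fibroblasts, in the lower chamber for 1 h, and were fixed in 0.3% paraformaldehyde for 10 min. Protrusions (Ps) were taken from below the filter and cell bodies (CB) from above it, which gave 4 groups of 4 libraries, siControl CB and siAPC CB for the cell bodies and siControl Ps and siAPC Ps for the protrusions. The labels number the libraries 1 to 4 in each group and name no cultures, the methods of the study speak of independent replicates, and p-values measure the spread between these libraries.

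Both RNAs are transcribed by RNA polymerase II and remain where they act. Malat1 gathers in nuclear speckles, which store splicing factors. Neat1 is the scaffold around which paraspeckles, another kind of nuclear body, assemble. The 3′ ends of Malat1 and of the long form of Neat1 are made in an unusual way: RNase P cuts the transcript, and a triple helix of U-rich and A-rich stretches protects the end in place of a poly(A) tail. The short form of Neat1 is cleaved and polyadenylated like an mRNA.

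The genes lie side by side on the minus strand of chromosome 19. In the GENCODE M21 annotation of GRCm38 (also called mm10), Malat1 (ENSMUSG00000092341, lincRNA) spans chr19:5795690-5802672 and is 6983 bases long, with a main transcript of 1 exon. Neat1 (ENSMUSG00000092274, lincRNA) spans chr19:5824708-5845478 and is 20771 bases long, again with a main transcript of 1 exon. A gap of 22035 bases separates them. The annotated short form holds 3004 bases of the 5′ part, and the table has a single value for the gene, so the forms were not told apart. The triple helix elements are shown because they set this pair apart from polyadenylated RNAs, and whether a library captures such ends affects how the counts of both genes are read. Capitals mark the first U-rich motif, the second U-rich motif and the A-rich tract, in this order, all as DNA letters of the transcript strand. The Malat1 element lies at chr19:5795982-5796067, minus strand, bases 6606 to 6691 of Malat1-201, and ends 292 bases before the annotated transcript end. The Neat1 element lies at chr19:5824708-5824797, minus strand, bases 20682 to 20771 of Neat1-201, and reaches the last base of the transcript.
Malat1: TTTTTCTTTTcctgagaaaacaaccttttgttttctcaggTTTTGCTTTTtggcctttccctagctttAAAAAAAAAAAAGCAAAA
Neat1: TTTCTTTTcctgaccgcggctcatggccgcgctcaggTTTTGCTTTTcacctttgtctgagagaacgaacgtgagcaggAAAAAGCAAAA

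Both elements share TTTCTTTT, TTTTGCTTTT and AAAAAGCAAAA, and these letters were chosen after the sequences of both RNAs were read. Searched on the transcript strand alone, over the longest transcript of each of 55341 annotated genes, TTTCTTTT occurred in 8410 genes (15.2%), TTTTGCTTTT in 762 (1.38%) and AAAAAGCAAAA in 304 (0.549%). All 3 in this order within 150 bases were found in 2 genes, Malat1 and Neat1. A match of letters describes the sequence and does not show a structure.

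Depth was similar in all groups, from 13466225 to 20296087 reads in listed genes per library. Fibroblast markers were high, with mean log2 CPM of 13.08 for Col1a1, 12.58 for Col1a2, 12.90 for Fn1 and 12.49 for Vim, whereas Thy1 was near the detection limit at -1.74. The endothelial marker Pecam1 had a mean of -1.49 and the epithelial marker Cdh1 one of 1.02. Apc, the siRNA target, was at 31.3% of its siControl level in CB (log2 change -1.67, SE 0.25, limma adjusted p = 0.000142) and at 27.9% in Ps (-1.84, SE 0.25, adjusted p = 3.11e-05). In each group, the library whose values fell most with the GC content of genes, set against its 3 replicates, was marked as the one with a GC trend. These were replicate 3 of siControl CB (Spearman's rho across genes -0.52), replicate 2 of siControl Ps (-0.60), replicate 2 of siAPC CB (-0.58) and replicate 2 of siAPC Ps (-0.65). In other libraries rho was as high as 0.54 (replicate 3 of siAPC CB) and 0.50 (replicate 4 of siAPC Ps). Each rho sets a library against its 3 replicates, so a strongly negative library raises the rho of the others. The positive values therefore do not show a trend of their own. Genes are not independent replicates, and these rho values only describe the libraries.

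Malat1 was much lower in protrusions than in cell bodies with either siRNA. In siControl CB, its log2 CPM was 5.96, 5.95, 7.82 and 6.08 in replicates 1 to 4, from 1045, 1049, 5244 and 1255 reads. In siControl Ps it was 3.94, 4.25, 3.44 and 3.11, from 190, 233, 164 and 122 reads. Every Ps library was thus below every CB library, which held for 26.5% of all 13015 genes in siControl, and the CB library numbered 3 stood far above the other CB libraries. In siAPC CB the log2 CPM was 5.99, 6.94, 6.58 and 5.97, from 1379, 2409, 1857 and 1105 reads. In siAPC Ps it was 3.95, 4.46, 3.61 and 3.49, from 242, 328, 232 and 184 reads. Again the fractions did not overlap, as in 30.4% of all genes in siAPC. The order of the group means of Malat1 was siControl CB (6.45 ± 0.91, SD, n = 4), siAPC CB (6.37 ± 0.47), siAPC Ps (3.88 ± 0.44) and siControl Ps (3.68 ± 0.51). The pair of CB groups overlapped in this order, as did the pair of Ps groups.

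Neat1 was lower in protrusions too, by a smaller factor. In siControl CB its log2 CPM was 9.27, 9.21, 9.38 and 9.17, from 10356, 10069, 15477 and 10652 reads. In siControl Ps it was 7.92, 8.18, 6.85 and 7.02, from 3022, 3535, 1754 and 1842 reads. The CB libraries lay within 0.21 of each other and the Ps libraries were spread over 1.32 on the log2 scale. In siAPC CB the log2 CPM was 8.87, 8.81, 8.64 and 8.49, from 10146, 8785, 7769 and 6315 reads. In siAPC Ps it was 7.80, 7.75, 6.78 and 6.55, from 3492, 3197, 2086 and 1542 reads. In both Ps groups the libraries numbered 1 and 2 were higher than those numbered 3 and 4, a pattern noticed in the data. The order of the group means of Neat1 was siControl CB (9.26 ± 0.09, SD, n = 4), siAPC CB (8.70 ± 0.17), siControl Ps (7.49 ± 0.65) and siAPC Ps (7.22 ± 0.65). Of neighbouring groups in this order, only the Ps groups overlapped.

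**Figure D1:**
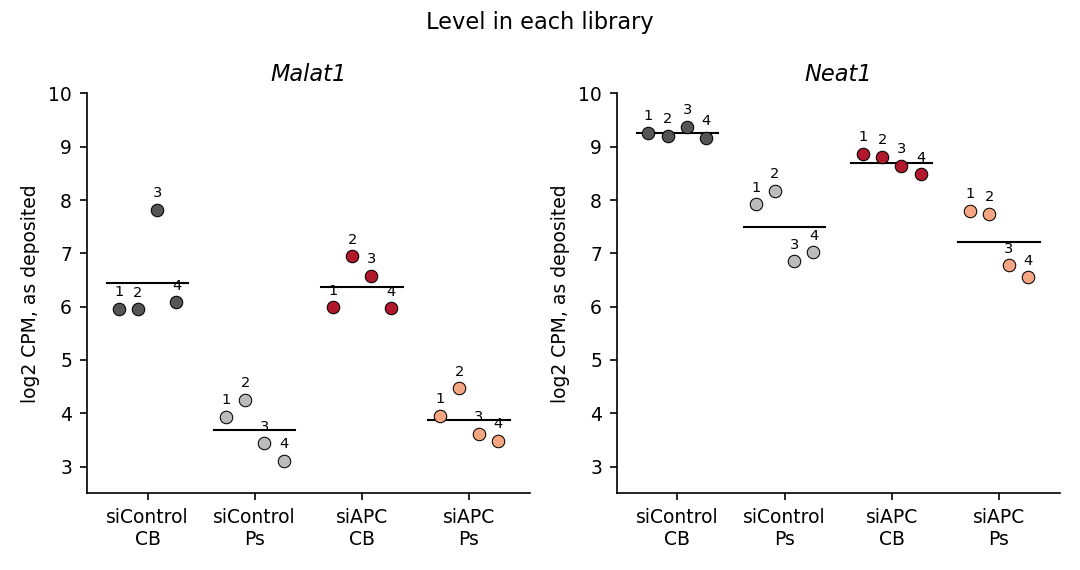
Deposited log2 CPM (vertical axis) of Malat1 (left) and Neat1 (right) in the 16 libraries, by group, with the replicate number over each point and a line at the group mean. For both RNAs every Ps library lies below every CB library of the same siRNA, and replicate 3 of siControl CB stands apart for Malat1 at 7.82.

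Between fractions, the mean log2 change of Malat1 (Ps minus CB) was -2.77 in siControl, with an SE of 0.35 from the limma fit. A Ps library therefore held on average 14.7% of the CB level on the CPM scale (reads scaled to a common library size). The differences between same-numbered libraries were -2.02, -1.69, -4.38 and -2.97 (SD 1.2). The middle pair of these values, and the SD, depend on the numbering of the CB libraries, which is in doubt: deviations over the 10292 genes with a mean of at least 1 correlated at -0.12 and -0.12 for numbers 2 and 3 of siControl, and the CB library with the GC trend is number 3 there and number 2 in the other groups. The group means and the limma values do not use the numbers. In siAPC the change was -2.49 (SE 0.35), or 17.7% of the CB level, with differences of -2.04, -2.48, -2.97 and -2.49 (SD 0.38). Neat1 changed by -1.76 in siControl (SE 0.27), or 29.5% of the CB level, with differences of -1.34, -1.03, -2.53 and -2.15 (SD 0.69). In siAPC it changed by -1.49 (SE 0.27), or 35.7% of the CB level, with differences of -1.07, -1.06, -1.87 and -1.94 (SD 0.48). In these bulk fractions, fewer nuclei and less of the RNA per nucleus cannot be told apart.

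Among all 13015 genes, ordered from the lowest Ps minus CB value, Malat1 ranked 19 in siControl and 20 in siAPC, and Neat1 ranked 120 and 152. Among the 10292 genes with a mean log2 CPM of at least 1, Malat1 ranked 2 in siControl and 1 in siAPC, whereas Neat1 ranked 20 and 44. Differences between fractions were common, since limma called 31.2% of all genes lower and 29.1% higher in Ps in siControl at an adjusted p below 0.05, and 30.9% lower and 29.8% higher in siAPC. These shares rest on the deposited scaling: scaled to total listed reads, limma called 6193 genes lower and 2005 higher in siControl (4058 and 3792 as deposited), and 5114 and 2793 in siAPC (4024 and 3877). The ranks describe the pair and are no test, because this contrast was used to choose it.

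When libraries were scaled to their total listed reads, the median Ps minus CB value of all genes shifted by -0.30 in siControl and by -0.16 in siAPC. Malat1 then changed by -3.06 and -2.65, and Neat1 by -2.06 and -1.64. Such a rescaling moves every gene by the same amount, so relative to the median gene the values remain, by construction, -2.77 and -2.51 for Malat1 and -1.76 and -1.50 for Neat1.

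The library of each group with the GC trend was the one with the highest Malat1. It exceeded the mean of the other 3 libraries by 1.82 (siControl) and 0.76 (siAPC) in CB, and by 0.76 (siControl) and 0.78 (siAPC) in Ps, on the log2 scale. For Neat1 in the same libraries these differences were 0.17 and 0.14 in CB and 0.91 and 0.71 in Ps. The GC content of Malat1 is 42.5%, and 12.9% of 12872 genes with a matched annotation have a lower one. For Neat1 these values are 47.3% and 35.1%. In siControl CB, replicate 3 also had the largest share of mitochondrial reads, 1.95% against 1.39 to 1.47% in the others. The share also moved with the fraction, from a mean of 1.57% in CB to 3.23% in Ps in siControl and from 1.52% to 2.55% in siAPC, and the part of GC trend and mitochondrial share in the values of the pair was not tested beyond leaving out libraries. Without the 4 libraries, the Ps minus CB change of Malat1 was -2.50 in siControl and -2.50 in siAPC, and that of Neat1 was -1.95 and -1.63. Without replicate 3 of siControl CB alone, Malat1 changed by -2.31 in siControl.

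Per unit of length, Malat1 was the lower of the pair in all libraries but 1. Malat1 had 16.5 ± 13.9 RPKM (SD, n = 4; reads per kb of exon at the CPM scale of listed reads) in siControl CB and 13.5 ± 4.6 in siAPC CB, against 1.68 ± 0.59 in Ps of siControl and 2.14 ± 0.71 in Ps of siAPC. Neat1 had 31.7 ± 3.5 and 22.0 ± 2.4 in CB, against 8.14 ± 3.57 and 7.55 ± 3.22 in Ps. On this per-length scale, 71.9% of 12872 genes were below Malat1 in siControl CB and 33.2% in siControl Ps. For Neat1 82.8% and 62.9% of genes were below. Replicate 3 carried the Malat1 value of siControl CB: without it the mean was 9.59 ± 0.70 (SD, n = 3), below that of siAPC CB, and 61.3% of genes were below. The RPKM of the pair use the length of all annotated exons, so a Neat1 pool made mostly of the short form would have a higher value per base of that form. The shares of genes below use the longest annotated transcript of each gene, which for the pair has the same length. The labels name the library kit as one for total RNA, and the methods of the study speak of total RNA libraries but give the same catalogue number the name of an mRNA kit, so it is not known whether RNAs without a poly(A) tail were captured in full.

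Malat1 relative to Neat1 is a ratio within a library, which the scaling between libraries does not touch. Per length, Malat1 was at 30.0%, 31.0%, 100.8% and 35.0% of Neat1 in replicates 1 to 4 of siControl CB, and at 18.7%, 19.6%, 27.8% and 19.7% in siControl Ps. In siAPC CB it was at 40.4%, 81.6%, 71.1% and 52.0%, and in siAPC Ps at 20.6%, 30.5%, 33.1% and 35.5%. Every Ps ratio was below every CB ratio of the same siRNA, which restates that Malat1 differed more between fractions than Neat1 did. With siAPC, all 4 CB ratios lay above 3 of the 4 siControl ratios, and replicate 3 of siControl was the exception. This ratio was not tested.

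**Figure D2:**
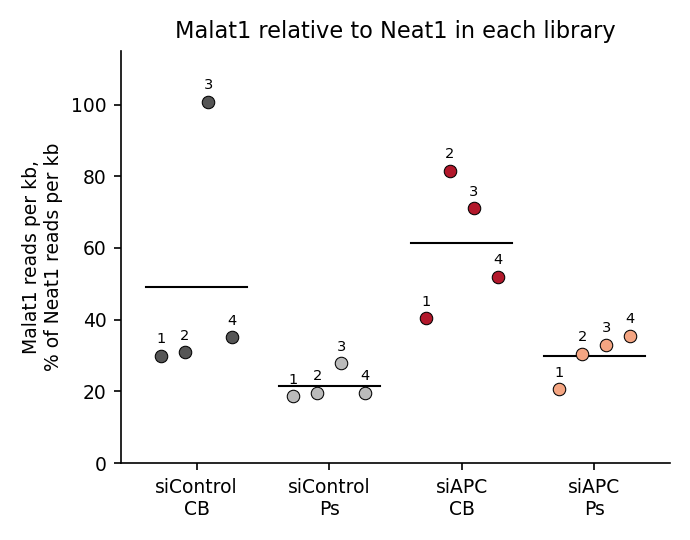
Reads per kb of Malat1 as a percentage of those of Neat1 in the same library (vertical axis), for the 4 groups, with replicate numbers over the points and lines at the group means. The Ps libraries lie between 18.7% and 35.5%, and replicate 3 of siControl CB reaches 100.8%.

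The comparison of the siRNAs asks whether the level of each RNA in a fraction differs with siAPC. The difference between fractions, not this comparison, was in view when the pair was chosen. Earlier results of these data were known by then, however, so its p-values are not shown to be independent of the choice. In cell bodies, Neat1 was lower with siAPC in every library: the highest siAPC value, 8.87, was 0.30 below the lowest siControl value, 9.17. The mean change was -0.55 on the log2 scale (SE 0.27, 95% confidence interval -1.12 to 0.01), which left 68.2% of the siControl level, and the same-numbered differences were -0.40, -0.40, -0.74 and -0.68, with the numbers of these CB libraries not shown to pair them. An exact two-sided permutation test of 4 against 4 libraries gave p = 0.0286, the smallest p this design allows, and was 1 of 6 such tests run on the pair. The limma fit over all genes did not call it (unadjusted p = 0.0551, adjusted p = 0.202). All 4 siAPC libraries lay below all 4 siControl libraries in 9.73% of the 13015 genes in CB, so this separation was not rare. The limma fit called 5.87% of genes lower and 7.52% higher in CB.

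That fit shares 1 estimate of the spread of a gene over all groups, and Neat1 varied more in Ps (SD 0.65 and 0.65) than in CB (0.09 and 0.17). Fitted on the 8 CB libraries alone, an alternative chosen after seeing the data, the change was the same with an SE of 0.08 and an adjusted p of 0.000743. Over all alternatives for this value, the change ranged from -0.61 to -0.48 and the adjusted p from 0.000344 to 0.389.

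Malat1 did not differ detectably with siAPC in cell bodies. Its mean change was -0.08 (SE 0.35, 95% confidence interval -0.82 to 0.66, adjusted p = 0.917; exact permutation p = 0.886), and the same-numbered differences were 0.03, 1.00, -1.24 and -0.11, of which the middle pair, signs included, rests on the doubtful numbers 2 and 3 of siControl CB. The interval allows a change of about the size seen for Neat1 in either direction. Without replicate 3 of siControl CB the change was 0.38 (adjusted p = 0.406), and over all alternatives the adjusted p ranged from 0.406 to 0.961.

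In protrusions, Malat1 changed by 0.19 with siAPC (SE 0.35, 95% confidence interval -0.55 to 0.93, adjusted p = 0.767; exact permutation p = 0.543). It was higher with siAPC in 4 of 4 same-numbered differences, which were 0.01, 0.21, 0.17 and 0.38. Neat1 changed by -0.28 (SE 0.27, 95% confidence interval -0.84 to 0.29, adjusted p = 0.534; exact permutation p = 0.514) and was lower in 4 of 4 differences, which were -0.13, -0.43, -0.08 and -0.47. The siRNA groups overlapped for both RNAs. These values depended on the scaling: with libraries scaled to total listed reads, Neat1 changed by -0.11 (adjusted p = 0.812) and Malat1 by 0.36 (adjusted p = 0.543), while the median of all genes shifted by 0.16. In Ps the limma fit called 11.2% of genes lower and 10.7% higher, and the 4 siAPC libraries lay below the 4 siControl libraries in 11.6% of genes. Scaled to total listed reads, it called 550 lower and 2943 higher, against 1464 and 1393 as deposited.

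Same-numbered Ps libraries of the siRNAs deviated together over the same 10292 genes, with correlations between 0.16 and 0.55. They were therefore taken as paired, although the labels name no cultures. The highest correlation was that of number 2, the library with the GC trend in both Ps groups. The part of that trend in the correlations was not tested. With the number as a block over all 16 libraries, the Neat1 change in Ps of -0.28 had an SE of 0.08 and an adjusted p of 0.0201, which passed the threshold. That fit also blocked the CB libraries, which were not taken as paired. The Ps libraries alone, fitted with the block after seeing the data, gave an SE of 0.07 and an adjusted p of 0.00758. Over all libraries without the block, leaving out 1 moved the change from -0.49 (without siControl Ps replicate 3) to -0.05 (without siControl Ps replicate 2). It was over 1.5 times larger also without siAPC Ps replicate 1 or 2 or siControl Ps replicate 4, and over 1.5 times smaller also without siAPC Ps replicate 3 or 4 or siControl Ps replicate 1. The adjusted p of this value ranged from 0.00758 to 0.932 over all alternatives. The exact test without pairing compares the same 8 values and does not use the numbers.

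**Figure D3:**
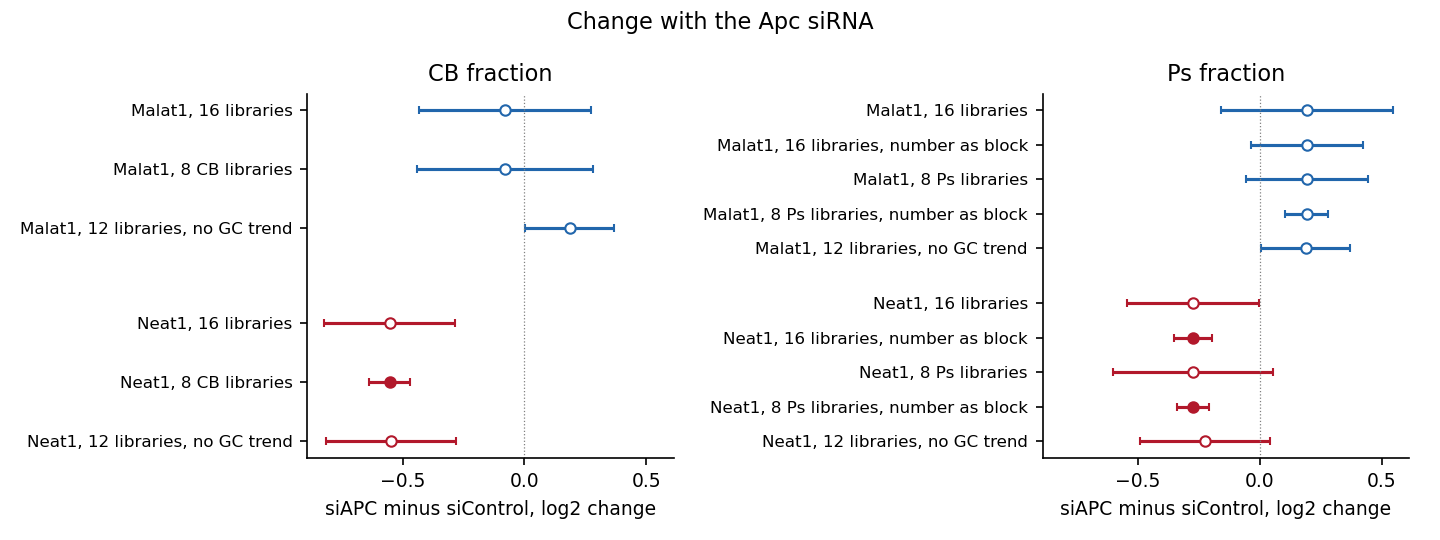
Log2 change with siAPC (horizontal axis) of Malat1 (blue) and Neat1 (red) in CB (left) and Ps (right), with SE bars, under the fits named at the left of each panel; filled points have an adjusted p below 0.05. Among the fits drawn, the Neat1 estimates are near -0.55 in CB, with an SE from 0.08 to 0.27, and between -0.28 and -0.22 in Ps, and the Malat1 estimate in CB crosses 0 without the 4 libraries with a GC trend.

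Whether the fraction difference depended on the siRNA was asked by the interaction, siAPC minus siControl of Ps minus CB. The interaction is built from the differences that chose the pair, so its p-values are given as a description and no conclusion is drawn. It was 0.27 for Malat1 (SE 0.50, adjusted p = 0.982; exact permutation p = 0.743 over same-numbered differences) and 0.28 for Neat1 (SE 0.38, adjusted p = 0.981; exact permutation p = 0.486). The permutation tests pair CB and Ps by number, which was not shown to hold in siControl, whereas the limma values do not. The 95% confidence intervals, -0.77 to 1.32 and -0.52 to 1.08, allow changes of more than 2-fold for either RNA in one direction. Over all genes limma called 0 higher (0%) and 3 lower (0.0231%), and at an unadjusted p below 0.05 there were 269 higher and 223 lower.

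Other nuclear noncoding RNAs lay on both sides of 0. Of 23 names in the list, 13 had a row, and 3 of these had a mean log2 CPM of at least 1. In siControl, 4 of 13 were lower and 3 higher in Ps, close to the 31.2% and 29.1% of all genes, with a median of 0.06 against 0.00 for all genes. In siAPC 2 were lower and 5 higher (30.9% and 29.8% of all genes), with a median of -0.10. Firre, a nuclear RNA transcribed from the X chromosome, fell by 2.06 in siControl (SE 0.27, adjusted p = 1.98e-06), and fell by 1.50 in siAPC, from 33 to 81 reads in CB and 8 to 20 in Ps. Kcnq1ot1, an imprinted antisense RNA that silences its neighbours, fell by 1.38 (SE 0.34, adjusted p = 0.0016), and fell by 1.51 in siAPC. Rn7sk, the RNA that holds the elongation factor P-TEFb inactive, rose by 1.95 (SE 0.37, adjusted p = 0.000146) and by 1.74, from 13 to 31 reads in CB and 34 to 119 in Ps. With so few reads these values rest on little depth. Pvt1, with 180 to 340 reads, rose by 0.68 in siControl (adjusted p = 0.000137) and by 0.64 in siAPC (adjusted p = 0.000246). Tug1, with 220 to 710 reads, changed by 0.29 (adjusted p = 0.231) and 0.45 (adjusted p = 0.0651). With siAPC, limma called 0 of the 13 in either fraction, and at an unadjusted p below 0.05 there were 0 in CB and 1 higher in Ps. Of all genes it called 5.87% lower and 7.52% higher in CB, and 11.2% and 10.7% in Ps.

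Noncoding RNAs known mainly from the cytoplasm were mostly higher in Ps. Of 12 names, 6 had a row: Gas5, Dancr, Snhg1, Snhg5, Snhg6 and Snhg12. Gas5 and the Snhg genes are hosts of small nucleolar RNAs, so the counts describe mainly such hosts and not cytoplasmic noncoding RNAs at large. In siControl 5 of 6 were higher and 0 lower in Ps, with a median of 0.78, and in siAPC the counts were the same. Of all genes, 29.1% were called higher and 31.2% lower in siControl, and 29.8% and 30.9% in siAPC. Gas5, a host of small nucleolar RNAs whose spliced RNA is exported, rose by 2.01 (SE 0.14, adjusted p = 5.23e-10) and by 1.79. Dancr rose by 0.99 and by 0.90, and Snhg6 by 0.98 and by 0.99. Gas5 was also the 1 gene of these 6 called with siAPC (5.87% of all genes were lower in CB and 11.2% in Ps), at -0.62 in CB (adjusted p = 0.00456) and -0.83 in Ps (adjusted p = 0.000196).

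Some mRNAs are known to be held in the nucleus in part. Of 6 names, 3 had a row. Slc7a2, a cationic amino acid transporter gene whose long transcript is retained in paraspeckles, fell by 0.79 in siControl (SE 0.13, adjusted p = 5.19e-05) and fell by 0.67 in siAPC. Clk1 and Clk4 encode kinases of splicing factors, and their unspliced transcripts wait in the nucleus. Their changes in siControl were -0.45 (adjusted p = 0.267) and -0.14 (adjusted p = 0.647), and in siAPC -0.0037 (adjusted p = 0.993) and 0.37 (adjusted p = 0.191). With siAPC, limma called 0 of the 3 in either fraction, also at an unadjusted p below 0.05, against the same shares of all genes.

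The mRNAs of paraspeckle proteins, the partners of Neat1, were spread around 0. All 16 names had a row, and 6 were higher and 2 lower in Ps in siControl (median 0.03), and 5 and 4 in siAPC (median 0.05), where all genes had 29.1% higher and 31.2% lower, and 29.8% and 30.9%. Hnrnpa1, an RNA-binding protein of many nuclear steps, rose by 1.11 (SE 0.10, adjusted p = 2.59e-08), Nudt21, a cleavage factor subunit, by 0.72, and Tardbp, the TDP-43 gene, by 0.61. The mRNAs of Sfpq and Nono, core paraspeckle proteins, changed by 0.00 (adjusted p = 0.992) and 0.39 (adjusted p = 1.35e-05). With siAPC, 1 of 16 was lower in CB (5.87% of all genes), Cpsf7 at -0.20 (adjusted p = 0.0295), another cleavage factor subunit. In Ps 3 were lower and 1 higher with siAPC (11.2% and 10.7% of all genes), led by Pspc1, a core paraspeckle protein, at 0.39 (adjusted p = 0.0257), Nudt21 at -0.34 (adjusted p = 0.00435) and Hnrnpa1 at -0.30 (adjusted p = 0.0394).

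The mRNAs of nuclear speckle proteins, the body in which Malat1 gathers, had a median below 0 in both siRNAs. Of 13 genes, 7 were lower and 2 higher in Ps in siControl (median -0.29), and 7 and 1 in siAPC (median -0.23). Of all genes, 31.2% were called lower and 29.1% higher in siControl, and 30.9% and 29.8% in siAPC. Srrm2, a large scaffold protein of speckles, fell by 1.26 (SE 0.06, adjusted p = 1.22e-11) in siControl and fell by 1.18 in siAPC. Srsf1, a splicing factor, fell by 0.80 (adjusted p = 0.000447) and fell by 0.78. Srsf3, of the same family, rose by 0.47 (adjusted p = 0.000658) and by 0.56. With siAPC 1 of the 13 was called (5.87% of all genes were lower in CB), Srsf2 at -0.22 in CB (adjusted p = 0.0361).

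The factors that make and protect the unusual 3′ ends include the protein subunits of RNase P, the RNase Z gene Elac2 and Mettl16, a protein that binds the triple helix. Of 13 names, 12 had a row. In Ps 7 were higher and 1 lower in siControl (median 0.33), and 8 and 2 in siAPC (median 0.32). Of all genes, 29.1% were called higher and 31.2% lower in siControl, and 29.8% and 30.9% in siAPC. The RNase P subunits Rpp30, Pop5 and Rpp21 rose by 0.83 (adjusted p = 4.63e-05), 0.67 (adjusted p = 5.71e-07) and 0.54 (adjusted p = 0.0178). Mettl16 rose by 0.24 (adjusted p = 0.0196), and Elac2 changed by -0.14 (adjusted p = 0.0571). With siAPC, 1 of the 12 was lower in CB and 2 in Ps (5.87% and 11.2% of all genes), and 0 were higher. Pop1, the largest protein subunit, fell by 0.32 in CB (adjusted p = 0.0108) and by 0.39 in Ps (adjusted p = 0.00152). Rpp40 fell by 0.38 in Ps (adjusted p = 0.0352).

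**Figure D4:**
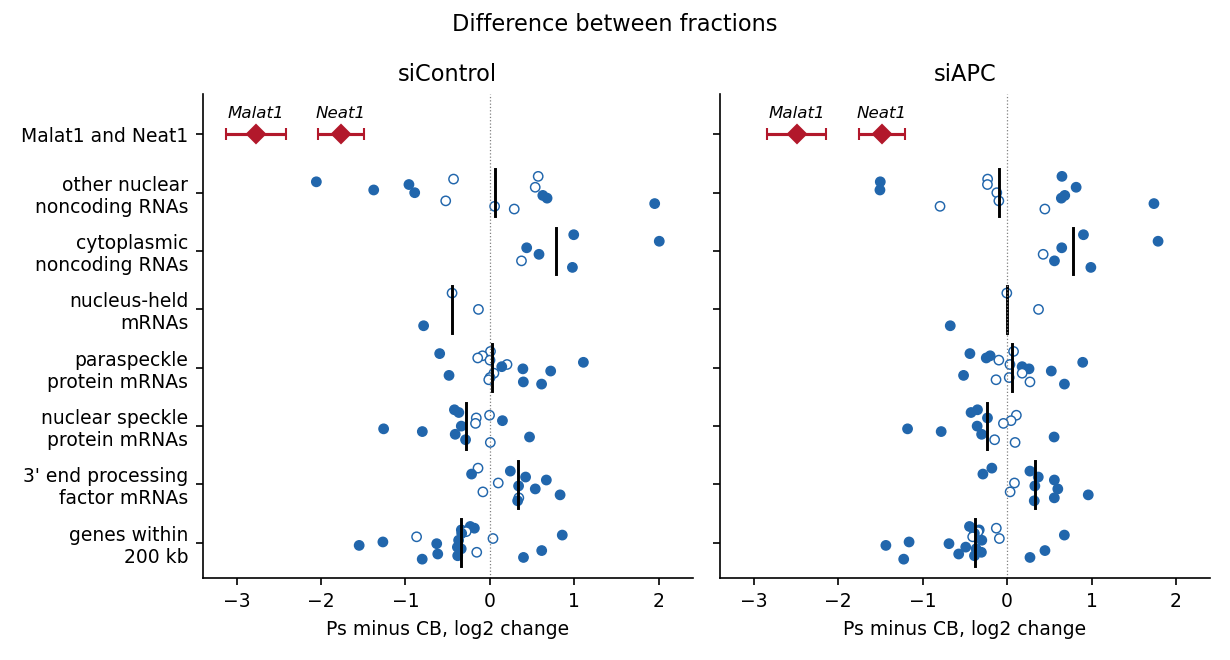
Log2 change between fractions (Ps minus CB, horizontal axis) in siControl (left) and siAPC (right) for Malat1 and Neat1 (red, with SE) and for each gene of the 7 lists (blue, filled at an adjusted p below 0.05), with black bars at the list medians. No gene of these lists is lower than Malat1 at -2.77 and -2.49, and the cytoplasmic noncoding RNAs lie to the right of 0.

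The table held 20 other genes within 200 kb of Malat1 or Neat1, 17 of them protein coding. In Ps 13 were lower and 3 higher in each siRNA (medians -0.34 and -0.38), and 12 were lower and 3 higher in both. Of all genes, 31.2% were lower and 29.1% higher in siControl, and 30.9% and 29.8% in siAPC. Pcnxl3 fell by 1.55 in siControl (SE 0.09, adjusted p = 1.45e-10) and Ltbp3, a binding protein of latent TGF-beta, fell by 1.27 (SE 0.06, adjusted p = 9.16e-12). The other genes called lower in siControl changed by -0.80 to -0.18 and were Tigd3, Map3k11, Sipa1, Pola2, Slc25a45, Kat5, Rela, Dpf2, Frmd8, Capn1 and Cdc42ep2. Sssca1 rose by 0.40 and Rnaseh2c, a subunit of RNase H2, by 0.61.

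Frmd8os, an annotated antisense RNA, starts 145 bases from the 5′ end of Neat1 and runs the other way on the plus strand. It rose by 0.86 in Ps in siControl (SE 0.23, adjusted p = 0.00306) and by 0.68 in siAPC (adjusted p = 0.0145), against the direction of Neat1. Its level was low, with 16 to 46 reads per library. With siAPC it fell by 0.82 in Ps (adjusted p = 0.0141). Beyond it, Capn1 (-0.35 and -0.57 in CB and Ps), Sipa1 (-0.58 and -0.54) and Cdc42ep2 (-0.24 and -0.18) were lower with siAPC in both fractions, Ltbp3 was higher in both (0.26 and 0.37) and Pola2 was higher in CB (0.39), all at an adjusted p below 0.05. In all, 3 of the 20 were lower and 2 higher in CB, and 4 and 1 in Ps, against 5.87% and 7.52% of all genes in CB and 11.2% and 10.7% in Ps. Counting by strand is not stated in the sources used here, so it is not known whether reads of overlapping genes on opposite strands were kept apart. The annotation places Gm27694 and Gm37376 over Malat1 and Gm27533, Gm27505 and Gm28006 over Neat1. Of all 50-base words of the members, 1.64% of those in Malat1 and 1.25% of those in Neat1 also occur in another annotated gene.

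**Figure D5:**
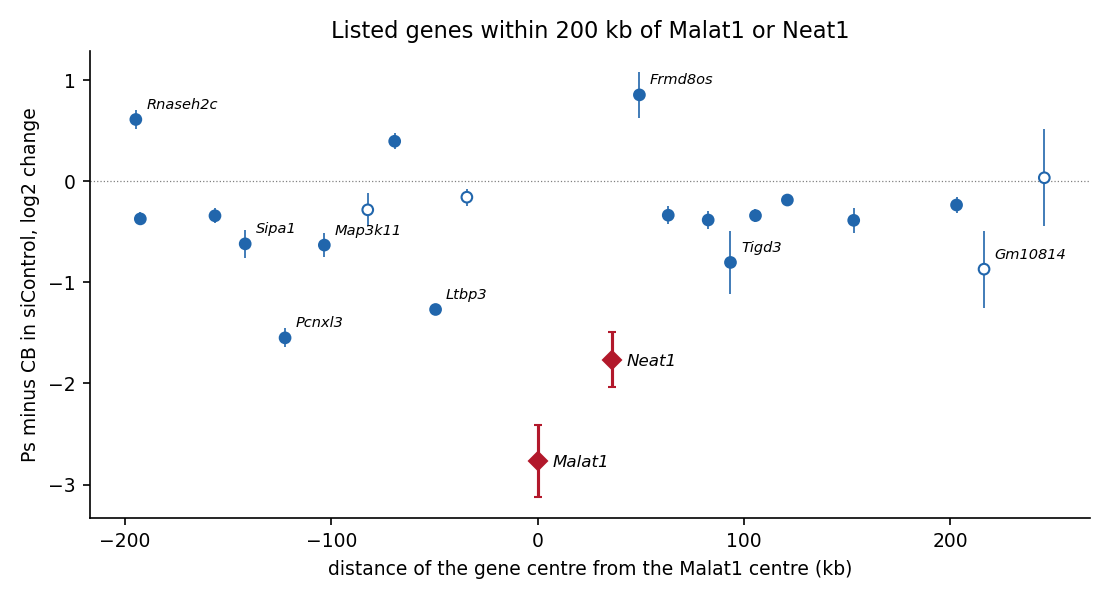
Log2 change between fractions in siControl (vertical axis, with SE) of the 20 neighbours (blue, filled at an adjusted p below 0.05) and of Malat1 and Neat1 (red), by distance of the gene centre from that of Malat1 in kb. All 20 neighbours lie above both members, the lowest of them at -1.55.

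Over the 16 libraries, the genes whose log2 values followed Malat1 most closely were Rsrp1 (Pearson's r = 0.967), Ccnl2 (0.964), Yeats2 (0.961), Rbm5 (0.951) and March6 (0.951), out of the 9589 genes left of those with a mean of at least 1 once predicted genes, clones, microRNAs, pseudogenes and mitochondrial genes were set aside. Rsrp1 encodes an arginine- and serine-rich protein, Ccnl2 cyclin L2 and Rbm5 a regulator of splicing. For Neat1 they were Ctsl (0.968), Gabbr1 (0.966), Mfsd1 (0.963), Lman1 (0.963) and Zfp263 (0.962). Ctsl encodes the protease cathepsin L and Lman1 a cargo receptor between the endoplasmic reticulum and the Golgi. These sets of 5 share no gene. Malat1 and Neat1 correlated with each other at 0.895, which put Neat1 at rank 221 for Malat1 and Malat1 at rank 201 for Neat1. The points share fraction, depth and the GC trend of 4 libraries, so these values describe likeness over these libraries. Ps minus CB in siControl ran from -2.39 (Rsrp1) to -0.47 (Rbm5) among the 5 genes most like Malat1, and from -0.81 (Zfp263) to -0.49 (Mfsd1 and Lman1) among those most like Neat1.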

How the data were processed

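RNA of Ps and CB fractions of NIH/3T3 cells was measured in 16 libraries (4 groups of 4, from the labels). Per the labels and the methods of the study, the authors demultiplexed reads with bcl2fastq 1.8.4, aligned them to mm10 with STAR 2.4.2a, took gene counts with Rsubread over GENCODE gene models, and applied limma-voom (limma 3.26.1). The deposited values are log2 CPM, with 0.5 reads added and a scaling factor between libraries. Inverting this gave whole reads for 100% of 208240 values (within 0.01), and these supplied read numbers and depth. Values here were fitted with limma 3.58.1 in R 4.3.3 (lmFit and eBayes with a trend, 1 mean per group, all 16 libraries, Benjamini-Hochberg over 13015 genes, threshold 0.05). Single values were also compared by exact two-sided permutation tests (scipy 1.17.1). The fit was tested on simulated data first.

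The members, the gene lists and the rule for named genes were chosen with earlier results of these data known. The rule named the members, Apc, up to 3 called genes per list and contrast, called neighbours within 200 kb, and the 5 genes most correlated with each member, leaving out names of predicted genes, clones, microRNAs, pseudogenes and mitochondrial genes. Sfpq, Nono, Clk1, Clk4, Mettl16, Elac2, Pvt1 and Tug1 were named beside it after their values were seen. Positions, GC content, lengths and sequences came from GENCODE M21 (GRCm38), to which 12872 genes (98.9%) matched by symbol; the authors used another release, so gene models may differ. Pairing by replicate number was checked from the correlation of deviations from group means over 10292 genes whose mean reached 1. Same-numbered libraries correlated at 0.16 to 0.55 between the Ps groups and at 0.42 to 0.62 between CB and Ps of siAPC, but at -0.12 to 0.43 between CB and Ps of siControl and at -0.34 to 0.27 between the CB groups, which were not taken as paired. Alternatives were other scalings, library or voom weights, a larger prior, a filter on low values, a replicate block, and leaving out libraries. The confidence intervals come from the limma fit and rest on the spread between libraries. Reads carry no molecular identifiers.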

Additional observations from a re-analysis of the deposited data

Results flagged for a closer look

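Malat1 in siControl CB had 1 library far from the others: replicate 3 at a log2 CPM of 7.82, from 5244 reads, with a gap to the nearest library that was 0.93 of the range of the group. Of 16 groups of 4 values examined in this way, this was the 1 that stood out, and chance marks about 1 in 20. The same library showed a GC trend (rho -0.52), the largest mitochondrial share of its group (1.95%) and the highest Apc of its group (log2 CPM 3.54). Their part in the Malat1 value was not tested.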

How the results depend on the processing

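The difference between fractions kept its sign in all alternatives run, from -3.06 to -2.31 for Malat1 in siControl, -2.69 to -2.30 in siAPC, and -2.07 to -1.55 and -1.68 to -1.26 for Neat1. The siAPC minus siControl change of Malat1 in CB, -0.08, turned to 0.23 with library weights and to 0.19 without the 4 libraries with a GC trend, and it ranged from -0.27 to 0.38 when 1 library was left out, at 0.38 without siControl CB replicate 3 and at 0.05 without siAPC CB replicate 1 or 4. With total-read scaling, the changes in Ps were 0.36 for Malat1 and -0.11 for Neat1. In Ps the Malat1 change, 0.19, ranged from -0.0027 (without siAPC Ps replicate 2) to 0.38, and its interaction, 0.27, from -0.18 (without siControl CB replicate 3) to 0.46. The Neat1 interaction, 0.28, ranged from 0.065 (without siControl Ps replicate 3) to 0.51 (without siControl Ps replicate 2). No siAPC minus siControl change of Malat1 and neither interaction passed the threshold in any of these. The differences between fractions were not tested against it.

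The replicate block left the Neat1 change of -0.55 in CB as it was and gave an adjusted p of 0.000344, although the numbers were not shown to pair these libraries. The CB libraries alone, chosen after seeing the data, gave -0.55 with an adjusted p of 0.000743, and 0.00206 with the block. For Neat1 in Ps, the block kept -0.28 and gave an adjusted p of 0.0201, and the Ps libraries alone with the block gave -0.28 and 0.00758. Leaving out 1 library gave -0.61 to -0.48 for Neat1 in CB and -0.49 to -0.05 in Ps, with no call. The block changed no other call of the members.

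The number of genes called in the interaction, 3, became 10 with library weights, 8 after quantile normalization, 1 with the block, 0 with total-read scaling, 0 without the 4 libraries with a GC trend, and 0 to 8 with 1 library left out. In CB the 1743 genes called with siAPC became 3438 with library weights and 1158 to 1886 with 1 library left out, the fewest without siAPC CB replicate 4. The causes were not tested. Depth limits Malat1 in Ps, with 122 to 328 reads per library.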
